A study of Mus musculus with 34 samples.

Results

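Late-passage attached cells of the mouse embryonic stem (ES) cell line D4 were compared with early-passage cells of the same line. The comparison was defined by title: D4-A1 to D4-A3 were the late attached RNAs and D4-E1 to D4-E3 the early RNAs. These were 6 of the study's 17 RNAs. Each was hybridised to 2 Affymetrix array types, MOE430A and MOE430B, which gave 12 of the 34 arrays. The other RNAs came from late detached D4 cells and from the same 3 states of a second line, C2. Their labels give 15% fetal bovine serum for C2 early cells and no serum percentage for C2 late or D4 late detached cells. All were kept at 5% CO2 and 37 C.

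Both groups were C57 BL/6 ES cells, and the source label names the blastocyst. The labels describe the D4 late attached cells as high chimerism with germline transmission, grown in a medium called Thromb-XTX-WES. The D4 early cells are described as low chimerism without germline transmission, grown in DMEM with 15% fetal bovine serum. Shared conditions were LIF, pyruvate, glutamine, beta-mercaptoethanol and non-essential amino acids in the medium, 5% CO2 and 37 C. Both groups grew on feeders of primary embryonic fibroblasts, the contaminating cell type named in the labels. The cells were lifted with light trypsin so that feeders stayed behind, and purity was estimated after 1 hour on a fresh plate. Estimated purity was about 90% for the D4 late attached cells and above 90% for the D4 early cells. Passage, medium and chimerism changed together, so they cannot be told apart here. The surface that "attached" refers to is not given in the sources used here, and the labels do not say whether a group's 3 RNAs are from separate cultures. P-values thus reflect only how much these RNAs varied, and that variation may be technical.

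ES cells keep the identity of the early epiblast through transcription factors such as Oct4 (the product of Pou5f1), Sox2 and Nanog. In mouse cultures, LIF acts through its receptor and STAT3 to sustain this state, and Nodal signalling sets up its own inhibitors, the Lefty proteins. Cultures can also hold cells that turn towards extraembryonic endoderm, a lineage known for endocytic receptors and basement membrane, and fibroblasts of the feeder layer, which make fibrillar collagens and contractile proteins under the control of serum response factor (SRF) and its cofactors.

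Values are log2(signal + 16) of the deposited signal intensities, called log2 signal below, and differences are D4 late attached minus D4 early in log2 units. Of the probe sets, 14160 on MOE430A and 16213 on MOE430B were bright enough to be tested. A probe set was called at a limma Benjamini-Hochberg adjusted p under 0.05 over all tested probe sets of its array type. For gene lists, 1 tested probe set stood for each gene, with MOE430A preferred to MOE430B and the highest mean signal deciding among several, which gave 14105 genes. Over these genes the median difference was -0.04. The groups did not overlap, with all 3 late attached RNAs above or below all 3 early RNAs, for 7.42% of genes on the higher side and 8.63% on the lower side. These shares are the background for the counts below. With 3 arrays a side, the number of arrays limits the precision.

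On MOE430A, pairs of RNAs correlated across probe sets at r = 0.904 to 0.920 among D4 late attached RNAs, 0.908 to 0.929 among D4 early RNAs and 0.858 to 0.927 between the groups. MOE430B gave 0.733 to 0.759 among late attached RNAs, 0.767 to 0.806 among early RNAs and 0.712 to 0.800 between them. One RNA stood apart in quality: the 3' to 5' ratio of Actb was 1.84 on MOE430A and 1.92 on MOE430B for D4 late attached 3, whereas the other D4 late attached and D4 early arrays of both types lay between 1.01 and 1.21. On MOE430A its fluidics log also departs from the others, by another protocol or an abort by the user. In the fluidics logs, the D4 late attached arrays and the D4 early arrays fell on different runs and days, and on MOE430A under different operators. On MOE430B, all 3 D4 early arrays also came from a second chip lot. Run, day, operator and lot therefore cannot be told apart from passage between these groups. The 2 late detached D4 RNAs shared the run of D4 early 1 and 2 and the day of all 3 early RNAs on both array types, and were on the first chip lot; their values are given below for the called probe sets and for some other genes. The ES cell markers Pou5f1, Sox2, Nanog, Zfp42, Esrrb and Dppa5a exceeded their array's median signal in all 6 RNAs.

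Few probe sets passed the test. On MOE430A, 3 of 14160 (0.0212%) were called, all higher in D4 late attached cells, and on MOE430B 4 of 16213 (0.0247%), of which 3 were higher and 1 was lower. At an unadjusted p under 0.05 there were 1703 on MOE430A (746 higher, 5.27%, and 957 lower, 6.76%) and 1495 on MOE430B (682 higher, 4.21%, and 813 lower, 5.01%). The called probe sets belonged to Srgn, to Cubn with 2 probe sets, to Jmjd4, to Trmt6, to Ntrk3 and to 1 transcript without a single gene symbol. In all 7 the groups did not overlap, which adds no separate evidence, since they were called on the same RNAs. Over all tested probe sets the groups did not overlap for 7.11% higher and 8.84% lower on MOE430A. On MOE430B these shares were 6.8% and 8.14%.

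Srgn encodes serglycin, a proteoglycan of secretory granules and vesicles. Its log2 signal was 10.53, 11.56 and 10.86 in D4 late attached cells, against 4.94, 7.46 and 7.24 in D4 early cells. Each late attached RNA lay more than 3 units above the highest early RNA, and D4 early 1 was the dimmest. The difference of 4.44 (SE 0.54) was the largest of the 7 and had an adjusted p of 0.0120. Its D4 early values lay at percentiles 1.08 to 21.71 of their arrays, so the size depends on the constant added to the signal. The difference was 4.84 with log2(signal + 1) and 3.77 with log2(signal + 64). Late detached D4 cells, which shared a run with D4 early 1 and 2, had 10.59 and 10.89.

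Cubn encodes cubilin, an endocytic receptor of visceral endoderm and kidney tubules. On its brightest probe set the log2 signal was 10.24, 10.85 and 10.75 in D4 late attached cells and 6.36, 7.92 and 5.93 in D4 early cells. The second probe set gave 10.50, 11.05 and 10.64 in late attached cells, against 6.60, 6.14 and 7.15 in early cells. Both separated the groups without overlap. The differences were 3.88 (SE 0.50, adjusted p = 0.0124) and 4.10 (SE 0.55, adjusted p = 0.0143). In D4 early cells the brightest probe set lay at percentiles 8.55 to 26.85 of its arrays, so the sizes depend on the added constant here too. The second probe set gave 4.34 with log2(signal + 1) and 3.56 with log2(signal + 64). In late detached D4 cells the brightest probe set had 10.02 and 10.89.

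The calls on MOE430A changed with the RNAs in the fit. With only the 6 RNAs compared, so that the spread of the other groups was not used, Srgn and the brightest Cubn probe set were not called (adjusted p = 0.189 and 0.133), while the other Cubn probe set was (0.0279). In the fit of all groups, Srgn was not called without D4 late attached 2 (adjusted p = 0.0754) or late attached 3 (0.0534), although its difference stayed between 3.63 and 4.89 with any 1 RNA left out. The brightest Cubn probe set lost its call without D4 late attached 2 (0.0754), late attached 3 (0.0693) or early 1 (0.112), with differences of 3.47 to 4.47. The other Cubn probe set lost its call without any 1 of 4 RNAs, late attached 2 and 3 and early 1 and 2. In those 4 fits its difference was 3.857 to 4.145 and its adjusted p 0.0693 to 0.112.

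On MOE430B the called genes are of other kinds. Trmt6 encodes the partner subunit of a tRNA adenine methyltransferase, known from yeast and human. Its log2 signal was 14.71, 14.78 and 14.48 in D4 late attached cells and 13.00, 13.18 and 13.15 in D4 early cells, a difference of 1.55 (SE 0.21, adjusted p = 0.0318). Jmjd4 encodes a JmjC-domain oxygenase, which in human cells modifies a translation termination factor. It had 10.57, 11.13 and 10.61 in late attached cells, against 7.53, 8.01 and 7.80 in early cells, a difference of 2.99 (SE 0.45, adjusted p = 0.0461). In late detached D4 cells, on the run of D4 early 1 and 2 and the first chip lot, Trmt6 read 14.28 and 14.41 and Jmjd4 11.20 and 10.59. Other probe sets of both genes had smaller differences and were not called, at 0.82 and 0.13 for Trmt6 and 0.48 for Jmjd4.

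Ntrk3, the gene of the neurotrophin-3 receptor TrkC, was the only called probe set that fell. Its log2 signal was 7.32, 7.73 and 7.25 in D4 late attached cells, against 10.22, 10.34 and 9.94 in D4 early cells, a difference of -2.73 (SE 0.37, adjusted p = 0.0318). Late detached D4 cells lay between the groups, at 9.82 and 8.63. Its other probe sets gave -0.77, 0.12 and 0.29 and were not called. The transcript without a single symbol (probe set 1432248_at) had 10.16, 10.65 and 9.65 in late attached cells and 7.21, 7.04 and 6.84 in early cells, a difference of 3.13 (SE 0.47, adjusted p = 0.0461), and late detached D4 cells had 9.19 and 9.40.

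None of the 4 calls on MOE430B held once chip lot was a term in the fit, with differences of 1.80 for Trmt6, 3.20 for Jmjd4, 4.01 for 1432248_at and -2.34 for Ntrk3 and adjusted p of 0.344, 0.449, 0.282 and 0.555. That fit learns the lot from 1 RNA, C2 early 2, which was on the second lot, beside C2 early 1 and 3 on the first. The C2 early 2 array was also on another day and run than C2 early 1 and 3. Lot therefore cannot be told apart from day and run in that fit. Jmjd4 read 10.52 on that array, against 9.57 and 11.07 on the other 2 C2 early arrays, and Trmt6 read 14.16, against 13.90 and 13.91. Ntrk3 read 10.81 there, against 10.23 and 10.61, and 1432248_at read 8.900, against 7.585 and 8.448. Leaving out single RNAs ended the calls of Trmt6, Jmjd4 and 1432248_at in each of 6 fits (adjusted p of 0.0672 to 0.254) and that of Ntrk3 in 5 of 6 (0.0504 to 0.177), while it was called without D4 late attached 2 (0.0476).

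**Figure D1:**
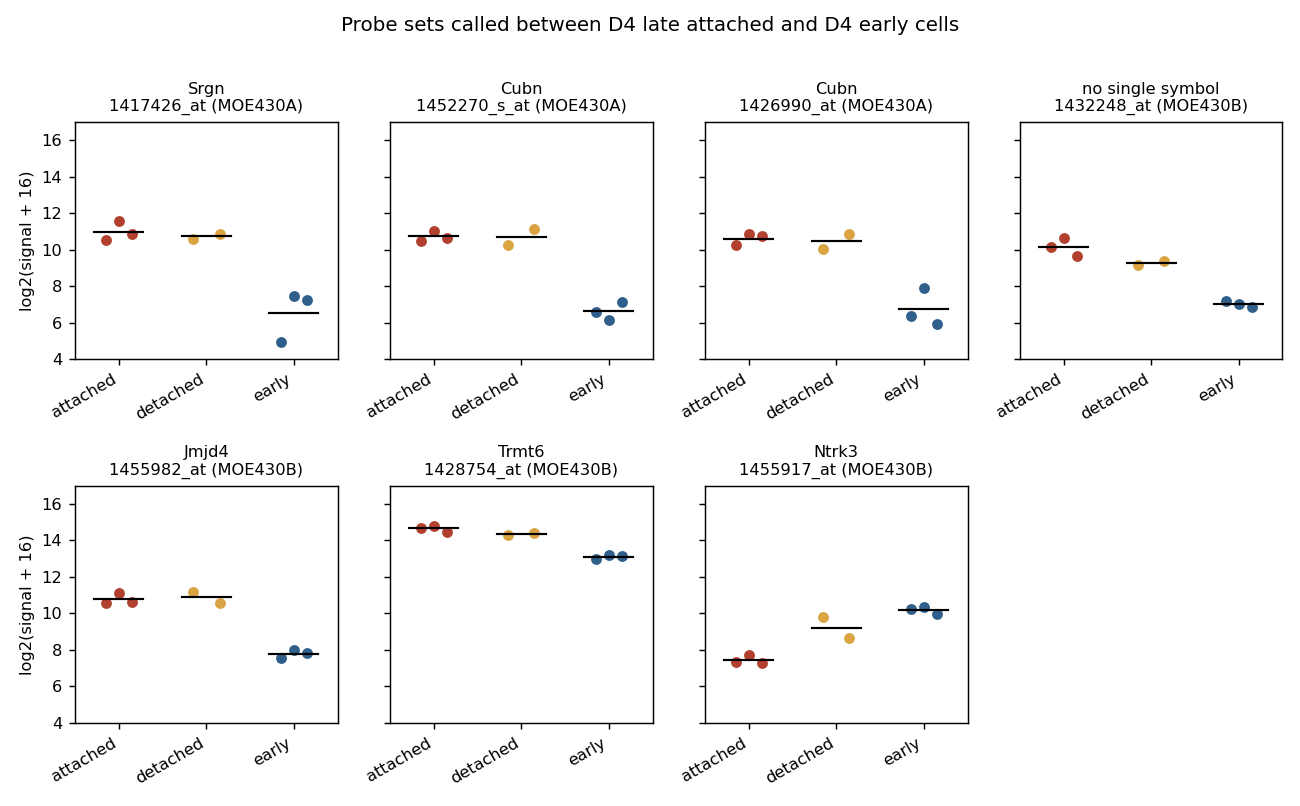
Log2(signal + 16) of the 7 called probe sets in the D4 RNAs: late attached (3 RNAs, left), late detached (2 RNAs, middle) and early (3 RNAs, right). Each point is an RNA and each line the group mean. The late attached and early points do not overlap in any panel; for Srgn the late attached RNAs read 10.53 to 11.56 and the early RNAs 4.94 to 7.46.

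Genes of extraembryonic endoderm showed both the largest rise and a mixed remainder. Of 27 listed genes 22 were measured, and 2 of them, Srgn and Cubn, were called, against 0.0284% of all genes. Both were chosen for the list with earlier results of these data known. The groups did not overlap on the higher side for 6 of the 22 and on the lower side for 2, and the median difference was 0.23, beside -0.04 over all genes, and 0.52 without D4 late attached 1. Summed signal over the measured members was 60470, 74811 and 73597 in D4 late attached cells and 64315, 60651 and 54571 in D4 early cells, so late attached 1 lay within the early range.

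Other genes of cubilin-mediated endocytosis were measured. Dab2, the clathrin adaptor that brings such receptors into vesicles, had a log2 signal of 11.03, 11.99 and 11.47 in D4 late attached cells, against 10.46, 9.97 and 9.52 in D4 early cells. The groups did not overlap, but the difference of 1.51 (SE 0.30) was not called (adjusted p = 0.135), and a second Dab2 probe set gave 0.31. Amn, whose product amnionless carries cubilin to the cell surface, had 9.87, 10.46 and 10.33 in late attached cells and 9.43, 9.04 and 8.88 in early cells, a difference of 1.10 (adjusted p = 0.193). Lrp2, the gene of the partner receptor megalin, gave -0.15, with overlapping groups.

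The transcription factors and matrix genes of the lineage did not pass the test. Gata6, a factor at the head of primitive endoderm, had 9.83, 10.38 and 9.68 in D4 late attached cells, against 9.39, 9.15 and 8.43 in D4 early cells, a difference of 0.97 (adjusted p = 0.242). A second MOE430A probe set gave 1.49 without overlap (adjusted p = 0.193), and a MOE430B probe set gave -1.20 with overlap (adjusted p = 0.607). Gata4 gave 0.17, with 9.60, 9.72 and 9.57 in late attached cells inside the early range of 9.01 to 9.73, and its sign turned to -0.05 without D4 early 3. Sox17, Sox7, Foxa2 and Hnf4a gave 0.08, 0.49, 0.48 and 0.51, all with overlapping groups. Lama1, a laminin chain of the early basement membrane, gave 1.02 without overlap (adjusted p = 0.193), whereas Col4a1, Col4a2 and Lamb1 gave -0.03, -0.53 and 0.05 with overlap. Ttr, a carrier protein of visceral endoderm, gave -2.16, Plat -0.69 and Nid1 -0.65, none called.

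No member of the naive list (20 measured of 20) or of the general list (16 measured of 17) was called. The naive list had a median difference of 0.43, with 15 members above 0 and 5 below, and did not overlap for 3 members on the higher and 2 on the lower side. That median depended on 1 library: without D4 early 1 it was 0.07, beside -0.04 for all genes in the same fit. The general list had a median of 0.25, with 11 members above 0 and 5 below, 3 members not overlapping on the higher and 0 on the lower side, and 0.06 without D4 early 1.

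Pou5f1, the gene of the Oct4 factor, had a log2 signal of 14.04, 13.40 and 13.79 in D4 late attached cells and 13.14, 13.53 and 13.88 in D4 early cells, a difference of 0.23 (SE 0.23, adjusted p = 0.739). Nanog had 13.24, 13.26 and 12.54 in late attached cells, against 13.07, 13.97 and 13.32 in early cells, a difference of -0.44 (adjusted p = 0.629). Sox2 had 13.65, 13.56 and 12.97 in late attached cells, against 12.17, 13.02 and 12.87 in early cells, a difference of 0.70 (SE 0.26, adjusted p = 0.299). The groups overlapped for all 3 core factors, and for Sox2 only D4 late attached 3 and early 2 did so.

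Among the naive factors, Klf4, Esrrb and Zfp42 gave 0.47, 0.43 and 0.44, each with overlapping groups and adjusted p of 0.522, 0.377 and 0.650. Other probe sets of Esrrb gave -0.40 and 0.20 and that of Klf4 gave 0.14, all with overlap. In Klf4 the late attached RNAs read 13.18, 12.99 and 12.88 and the early RNAs 11.79, 12.96 and 12.88, so D4 early 1 was the only RNA well below the rest. Zfp42 showed the same shape, with 11.26, 11.13 and 10.51 in late attached cells, against 9.73, 10.94 and 10.92 in early cells. Members that did not overlap were Gbx2 at 1.75, Nr0b1 at 1.09 and Klf5 at 0.66 on the higher side and Pecam1 at -0.92 and Dppa3 at -0.57 on the lower side (adjusted p of 0.193 to 0.565). Here and in the lists below, members picked out for not overlapping, beyond those fixed with the lists, were chosen after their values were seen. In the general list the members without overlap were L1td1 at 1.35, Utf1 at 0.60 and Sall4 at 0.57.

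Among the genes of LIF and STAT3 signalling, none of 16 measured was called, 3 did not overlap on the higher and 2 on the lower side, and the median difference was 0.15, but 0.07 without D4 early 1. Socs3, a STAT3 target that feeds back on the receptor's kinases, had a log2 signal of 12.18, 12.97 and 12.47 in D4 late attached cells, against 10.72, 11.09 and 11.65 in D4 early cells. The groups did not overlap, and the difference was 1.38 (SE 0.26, adjusted p = 0.135). Its other probe sets gave 0.83 and 0.49, and late detached D4 cells read 12.95 and 13.14 on the brightest. Socs2, a related inhibitor, gave 0.90 without overlap (adjusted p = 0.242). The receptor subunits Lifr and Il6st gave 0.58 and 0.05 and Stat3 itself 0.11, all with overlap. Icam1 and Jak2 lay lower without overlap, at -0.72 and -0.64, and were not called (adjusted p = 0.511 and 0.736).

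Socs3 was 1 of 2 genes, with Icam1, among 15 LIF and STAT3 genes with a promoter entry (13.3%) that carried the STAT motif TTCNNNGAA in the window from 250 bases before to 50 after the transcription start. The motif, searched on both strands, was in 8.30% of all 32851 promoters in the RefSeq table for GRCm38.p6. The Socs3 window is shown because this gene had the smallest adjusted p of the list; its only match, in capitals, began 154 bases before the start (chr11:117969317-117969616, minus strand).
Socs3: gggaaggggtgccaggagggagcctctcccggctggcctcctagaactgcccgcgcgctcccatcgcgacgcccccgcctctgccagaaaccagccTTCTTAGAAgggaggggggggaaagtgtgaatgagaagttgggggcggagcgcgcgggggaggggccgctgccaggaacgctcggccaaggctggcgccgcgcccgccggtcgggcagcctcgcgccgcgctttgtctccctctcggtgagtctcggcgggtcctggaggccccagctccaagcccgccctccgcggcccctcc

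**Figure D2:**
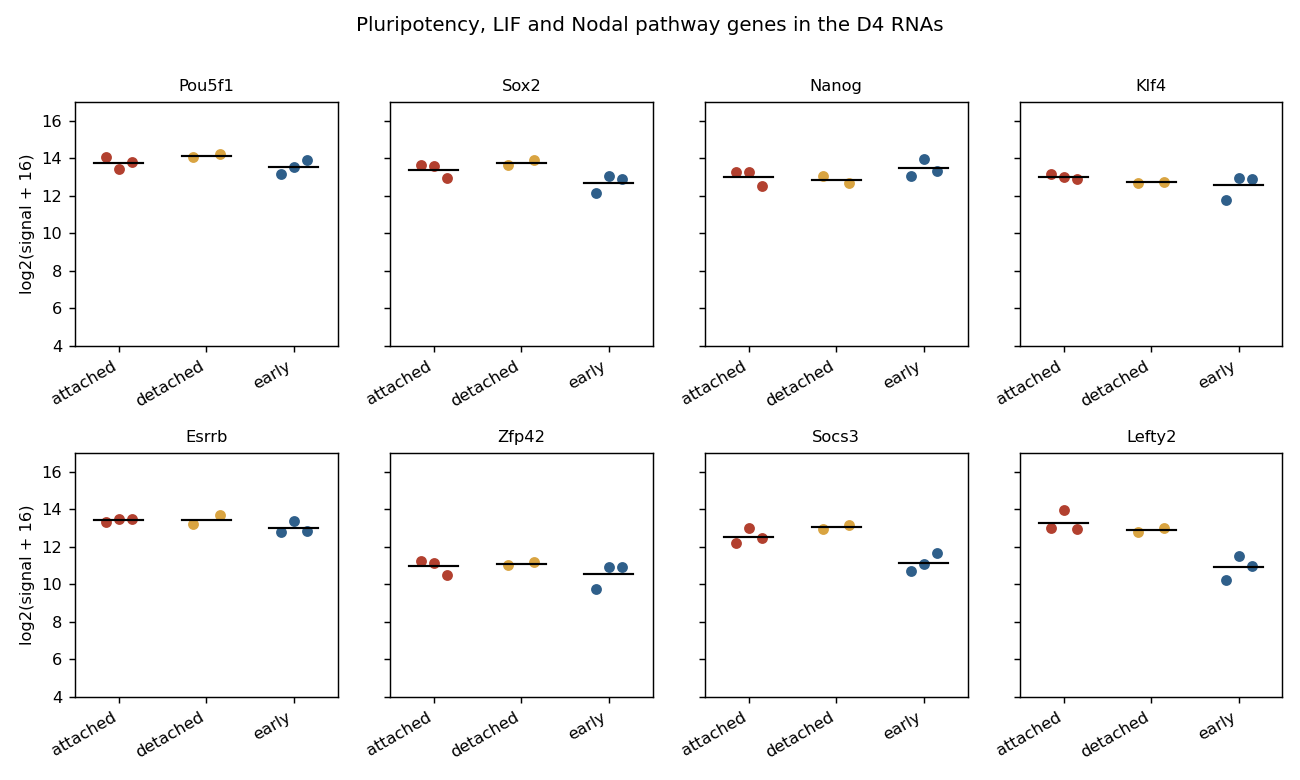
Log2(signal + 16) of 8 pluripotency, LIF and Nodal pathway genes in D4 late attached (left), late detached (middle) and early RNAs (right), each point an RNA and each line the group mean. Late attached and early RNAs overlap for Pou5f1, Sox2, Nanog, Klf4, Esrrb and Zfp42 and not for Socs3 (12.18 to 12.97 in late attached, 10.72 to 11.65 in early) or Lefty2 (12.92 to 13.94 and 10.22 to 11.52).

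In the Nodal pathway, Lefty2 stood alone. This secreted Nodal inhibitor, itself a Nodal target, had a log2 signal on MOE430B of 12.98, 13.94 and 12.92 in D4 late attached cells, against 10.22, 11.52 and 10.97 in D4 early cells. The lowest late attached RNA lay more than 1 unit above the highest early RNA, and the difference was 2.38 (SE 0.41, adjusted p = 0.0713). Late detached D4 cells read 12.76 and 13.01. Its close relative Lefty1 had 12.35, 13.00 and 12.47 in late attached cells, inside the early values of 13.12, 12.62 and 11.73, a difference of 0.12 that turned to -0.08 without D4 late attached 2 and to -0.26 without D4 early 3. The ligand Nodal gave -0.07, the coreceptor Tdgf1 0.65, the related ligand Gdf3 0.32 and the receptors Acvr1b and Acvr2b 0.01 and -0.04, all with overlap. Of 12 measured genes of the pathway none was called, 1 did not overlap, and the median was -0.05, which changed sign without D4 late attached 1 (0.01) or D4 early 2 (0.03) and was -0.14 without D4 early 3. Lefty2 was measured on the array type where the D4 early RNAs were on another chip lot than the other D4 RNAs. The part of the lot in its difference was not tested within D4. With lot in the limma fit the difference was 2.02 (adjusted p = 0.728).

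Genes of the contractile apparatus, most of them SRF targets, had the lowest median of the 30 lists. All 19 measured genes of 21 listed had a difference below 0, although none was called, and the groups did not overlap for 14 of the 19 on the lower side and 0 on the higher side. The median difference was -1.23, and -0.93 to -1.80 with any 1 D4 RNA left out. Summed signal was 48011, 66663 and 69124 in D4 late attached cells, against 280994, 98468 and 161246 in D4 early cells. Every early sum exceeded every late attached sum, D4 early 1 was highest and D4 early 2 closest to the late attached RNAs.

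Acta2, smooth muscle actin, had a log2 signal of 11.73, 12.60 and 12.80 in D4 late attached cells, against 16.08, 13.90 and 14.57 in D4 early cells, a difference of -2.48 (SE 0.53, adjusted p = 0.180); a dimmer MOE430B probe set gave 1.07 (adjusted p = 0.730). Tagln, the actin-binding protein transgelin, had 10.88, 11.69 and 11.74 in late attached cells, against 15.04, 12.56 and 14.63 in early cells, a difference of -2.64 (SE 0.66, adjusted p = 0.193). In both genes the groups did not overlap and D4 early 2 was the lowest early RNA. Cnn1, calponin, had 7.0, 8.51 and 7.62 in late attached cells, against 11.50, 9.21 and 10.05 in early cells, a difference of -2.54 (SE 0.63, adjusted p = 0.193).

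Tpm1, a tropomyosin, had 10.99, 11.78 and 10.37 in D4 late attached cells, against 14.57, 12.59 and 13.94 in D4 early cells, a difference of -2.66 (SE 0.60, adjusted p = 0.191). All 4 probe sets of Tpm1 lay lower, at -1.84, -2.27 and -2.62 for the others, the last with an adjusted p of 0.0659. Acta1, skeletal muscle actin, had 8.36, 7.86 and 8.15 in late attached cells, against 12.29, 9.44 and 12.23 in early cells, a difference of -3.20 (SE 1.06, adjusted p = 0.264). Myl9, a myosin light chain of smooth muscle, gave -2.01 (SE 0.54, adjusted p = 0.201) without overlap. At the other end were Srf itself at -0.02, with 11.03, 11.20 and 10.99 in late attached cells and 11.27, 11.07 and 10.95 in early cells, and the focal adhesion gene Zyx at -0.04.

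A CArG box, the motif that SRF binds, with CC and GG around a run of A and T letters, was searched on both strands of the promoter windows. It was found in 5 of the 17 contractile genes with an entry (29.4%), namely Acta1, Cnn2, Myl9, Vcl and Srf, against 1.47% of 11303 tested genes and 1.63% of all 32851 promoters. The lists were built from known targets, so this share describes the choice of genes. The windows of the 2 genes with the largest differences among these 5 are shown, with the box in capitals; it began 73 bases before the start in Acta1 (chr8:123894726-123895025, minus strand) and 161 bases before it in Myl9 (chr2:156775214-156775513, plus strand).
Acta1: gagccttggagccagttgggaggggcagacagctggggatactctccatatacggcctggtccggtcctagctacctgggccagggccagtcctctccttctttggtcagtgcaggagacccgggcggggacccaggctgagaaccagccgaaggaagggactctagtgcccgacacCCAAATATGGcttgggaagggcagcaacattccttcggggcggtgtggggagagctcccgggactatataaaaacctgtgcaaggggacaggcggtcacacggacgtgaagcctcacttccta
Myl9: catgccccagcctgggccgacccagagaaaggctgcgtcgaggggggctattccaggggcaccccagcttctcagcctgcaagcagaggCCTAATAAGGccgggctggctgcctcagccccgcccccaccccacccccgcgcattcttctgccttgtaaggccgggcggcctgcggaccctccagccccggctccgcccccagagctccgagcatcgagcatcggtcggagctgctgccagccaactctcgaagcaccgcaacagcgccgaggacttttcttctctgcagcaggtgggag

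Markers of the feeder fibroblasts moved in the same direction as the contractile genes. Of 31 listed genes 25 were measured, 22 had a difference below 0, none was called, and 12 did not overlap, all on the lower side. Lum, Fap, Pdgfrb, Twist1 and Prrx1 were too dim to be tested. The median difference was -1.0, and -0.77 to -1.26 with any 1 D4 RNA left out. Summed signal was 68205, 80593 and 110928 in D4 late attached cells, against 210820, 104756 and 143143 in D4 early cells, so D4 early 2 lay within the late attached range and D4 early 1 highest. In late detached D4 cells the sums were 45726 and 54228. In RNA from a mixed culture, fewer cells of a type and less RNA per cell cannot be told apart.

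Col1a1, a chain of fibrillar collagen I, had a log2 signal of 10.29, 9.78 and 10.32 in D4 late attached cells, against 13.61, 12.33 and 12.49 in D4 early cells, a difference of -2.68 (SE 0.66, adjusted p = 0.193). Its second probe set gave -2.17. Col3a1, the chain of collagen III, had 8.69, 8.45 and 8.97 in late attached cells, against 10.95, 10.34 and 10.49 in early cells, a difference of -1.89 (SE 0.34, adjusted p = 0.135). Both were without overlap, as were Col1a2 at -1.88, Col5a1 at -1.65, Col5a2 at -1.73 and the matrix-associated Ccdc80 at -2.25.

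Not all fibroblast markers shared this. Thy1, a fibroblast surface antigen, had 10.57, 11.32 and 12.19 in D4 late attached cells and 12.47, 12.13 and 12.24 in D4 early cells, a difference of -0.92 with D4 late attached 3 inside the early range. Sparc, Dcn and Pdgfra gave 0.09, -0.05 and 0.28, all with overlap. The contractile genes are also made by fibroblasts, and the part of the feeder cells in the contractile result was not tested. In late detached D4 cells Acta2 read 10.66 and 10.91 and Col1a1 5.98 and 6.32, both below the late attached RNAs.

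**Figure D3:**
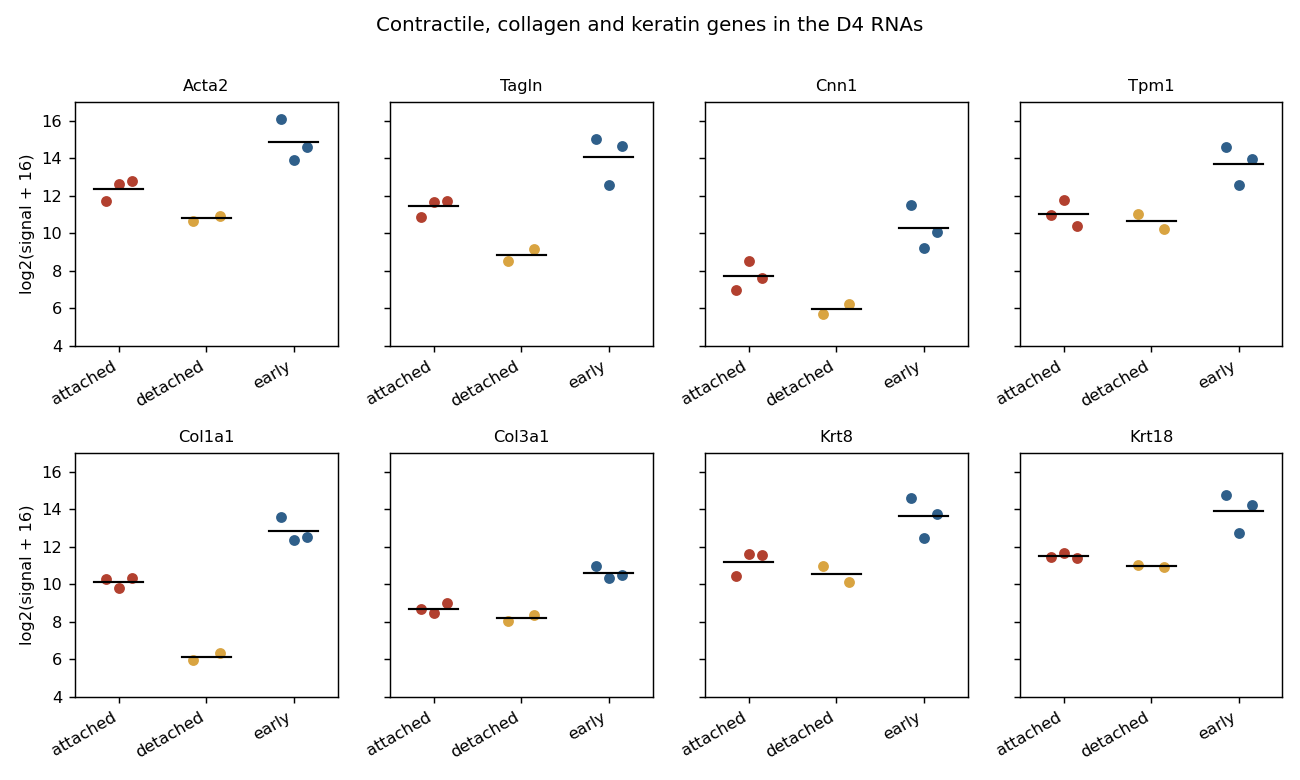
Log2(signal + 16) of 4 contractile genes (Acta2, Tagln, Cnn1, Tpm1), 2 collagen genes and 2 keratin genes in D4 late attached (left), late detached (middle) and early RNAs (right), each point an RNA and each line the group mean. Every late attached point lies below every early point of its gene, and D4 early 2 is the lowest early RNA in each panel; in Tagln it read 12.56, against 15.04 and 14.63 for the other early RNAs.

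Secreted factors of fibroblasts (14 measured of 20) had a median of -0.56, and -0.22 without D4 late attached 1, with 6 members above 0 and 8 below. None was called and 4 did not overlap, all on the lower side. Igfbp7 gave -1.48, Igfbp3 -1.46 and Igfbp4 -0.74, all binding proteins of insulin-like growth factors, and Ptgs2, a prostaglandin synthase, gave -1.18. On the other side Mmp3, a matrix protease, gave 0.74, the chemokine Ccl2 0.56 and Lif, the cytokine of the culture, 0.56, all with overlap. Of the YAP and TEAD targets (18 measured of 20), 16 lay below 0 and 4 did not overlap on the lower side, with a median of -0.52. Thbs1, the matrix protein thrombospondin 1, gave -2.02 (adjusted p = 0.193) and the receptor gene Axl -1.32, whereas Ccn2, the most used reporter of the pathway, read 13.25, 13.37 and 12.66 in D4 late attached cells, against 13.85, 13.34 and 13.57 in D4 early cells, a difference of -0.50 with overlap.

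Simple epithelial genes were lower as well, again with none called. Of 17 measured genes of 18 listed, 16 lay below 0 and 8 did not overlap, all on the lower side, with a median of -0.71, and -0.54 to -0.92 with any 1 D4 RNA left out. The keratin partners Krt8 and Krt18 led. Krt18 had a log2 signal of 11.43, 11.68 and 11.39 in D4 late attached cells, against 14.77, 12.72 and 14.22 in D4 early cells, a difference of -2.40 (SE 0.75, adjusted p = 0.247). Krt8 had 10.41, 11.61 and 11.55 in late attached cells and 14.62, 12.47 and 13.76 in early cells, a difference of -2.43 (SE 0.77, adjusted p = 0.248), and its other probe sets gave -2.55 and -2.07. D4 early 2 was again the lowest early RNA in both. Summed signal of the list was 44579, 50556 and 50153 in late attached cells, against 132371, 64556 and 88806 in early cells, and the feeder sums given above had the same order among the early RNAs; the part of feeder cells in this and the following lists with negative medians was not tested.

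The junction genes of the list split. The claudins Cldn6 and Cldn7 gave -1.01 and -0.62 and Jup, plakoglobin, -0.37, all without overlap, while Cdh1 and Epcam gave 0.08 and -0.13 with overlap. Anxa3 gave -1.59 and Krt7 -1.26, without overlap. The trophoblast list, which shares 4 keratins with this one, had a median of -0.23 over 12 measured genes of 15, and the median lay between -0.64 and -0.06 with any 1 D4 RNA left out. One member did not overlap on the higher side and 4 on the lower side. Its sums moved as those of the keratins: 9865, 15231 and 13420 in D4 late attached cells, against 65314, 21307 and 40981 in D4 early cells. Cdx2, Elf5 and Gata3, regulators of trophoblast, were too dim to be tested.

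Several growth control lists also had negative medians with no call. Of the p53 response genes (19 measured of 22), 15 lay below 0 and 5 did not overlap on the lower side, with a median of -0.60, and -0.40 without D4 early 1. Plk2, a stress-induced kinase, had a log2 signal of 10.83, 11.24 and 10.65 in D4 late attached cells, against 12.42, 12.15 and 11.85 in D4 early cells, a difference of -1.24 (SE 0.25, adjusted p = 0.162). Cdkn1a, the cell cycle inhibitor p21, had 11.90, 11.92 and 12.38 in late attached cells, against 13.01, 12.75 and 12.60 in early cells, a difference of -0.72 (adjusted p = 0.275). Neither overlapped. A second probe set gave -0.41 for Plk2, with overlap, and -1.14 for Cdkn1a. Mdm2, which marks p53 for degradation, and Ccng1 gave -0.91 and -0.82, both with overlap. Trp53 was not analysed here.

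Imprinted genes, expressed from 1 parental copy, had a median of -0.52 over 19 measured of 27, but -0.26 without D4 early 1, and 2 did not overlap on the higher and 5 on the lower side. Igf2, a fetal growth factor, had 10.53, 10.88 and 8.12 in D4 late attached cells, against 12.55, 10.84 and 11.43 in D4 early cells, a difference of -1.76 (SE 0.57, adjusted p = 0.258). D4 late attached 3 was far the lowest, and D4 early 2 lay inside the late attached range. Grb10, Igf2r, Sgce, Rian and Gnas lay lower without overlap, at -1.17, -0.81, -0.77, -0.73 and -0.62, while Mirg and Gab1 lay higher, at 0.85 and 0.30. Peg3, Meg3 and Dlk1 gave 0.18, -0.10 and -0.09. H19 was not analysed here.

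Integrins and adhesion genes (20 measured of 24) had a median of -0.57, but -0.29 without D4 late attached 1 and -0.35 without D4 early 1, with 5 members above 0 and 15 below. One member did not overlap on the higher side, the collagen receptor subunit Itga1 at 1.25, and 4 on the lower side. Itga5 and Itga3 gave -1.16 and -1.08 and the galectin gene Lgals1 -1.11 without overlap, as did Icam1 at -0.72, and Itgb1 -1.07 with overlap. The interferon and antigen presentation list (11 measured of 17) had a median of -0.31, but -0.15 without D4 late attached 1 and -0.20 without D4 early 1, with B2m, the light chain of MHC class I, at -1.18 and H2-D1, a heavy chain, at -1.56. For B2m the late attached RNAs read 11.91, 12.14 and 11.01 and the early RNAs 12.96, 13.02 and 12.62. BMP and TGF-beta response genes (18 of 20) had a median of -0.13, and -0.08 to -0.27 with any 1 D4 RNA left out. One of them, the ligand Tgfb3, had the largest negative difference among the 14105 genes, at -3.45 (SE 0.76, adjusted p = 0.182), with 6.27, 6.93 and 6.45 in late attached cells, against 10.85, 9.37 and 9.80 in early cells.

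The Wnt response (14 measured of 19) had a median of 0.35, but 0.09 without D4 early 1 and 0.69 without D4 early 2. Its 3 members without overlap were Myc at 1.72, Dkk1 at 1.07 and the receptor gene Fzd7 at 0.65. Myc, a growth-promoting transcription factor, had 11.88, 10.68 and 10.63 in D4 late attached cells, against 8.86, 9.38 and 9.80 in D4 early cells (adjusted p = 0.204). The FGF and ERK response (18 of 19) had a median of 0.15, and 0.08 to 0.36 with any 1 D4 RNA left out, and 9 members on each side of 0. Without overlap were 3 members higher and 2 lower, namely the ERK phosphatase gene Dusp4 at 1.12, the target Etv4 at 1.22 and Phlda1 at 0.74 on the higher side and the receptor gene Fgfr1 at -0.91 and Ier3 at -0.53 on the lower side. The primed epiblast list (9 of 13) had a median of 0.35, but 0.20 without D4 late attached 2, and one of -0.33 in C2. It had 1 member without overlap on each side, Dnmt3a, a DNA methyltransferase, at 0.81 and Krt18 at -2.40, and Fgf5 and Otx2 were too dim to be tested.

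For metabolic, stress, cell cycle and chromatin lists, and for those of other lineages, medians ran from -0.09 to 0.21, beside -0.04 over all genes. They were -0.02 for cholesterol synthesis (18 measured of 21), 0.05 for fatty acid synthesis (14 of 14), 0.10 for hypoxia and glycolysis (22 of 25), -0.05 for ER stress and amino acid response genes (22 of 22), 0.14 for the oxidative stress and metal response (18 of 21), 0.05 for the cell cycle (25 of 28) and 0.21 for DNA methylation and chromatin (19 of 19). Immediate early genes (18 of 20) had a median of 0.00. For the mesoderm and primitive streak list (9 of 16), the neuroectoderm list (9 of 14) and the germ line list (11 of 17) the medians were -0.09, -0.09 and -0.02. No member of any of these was called, and the medians of 7 of these 11 lists changed sign when some single D4 RNA was left out. Examples without overlap were Fasn, fatty acid synthase, at 0.62, Pdk1, which limits pyruvate use, at 1.03 and the growth factor Vegfa at -1.06. Stra8, a retinoic acid target of germ cells, had 7.11, 9.52 and 7.77 in D4 late attached cells, against 10.36, 9.60 and 10.04 in D4 early cells, a difference of -1.86 (SE 0.52, adjusted p = 0.215).

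**Figure D4:**
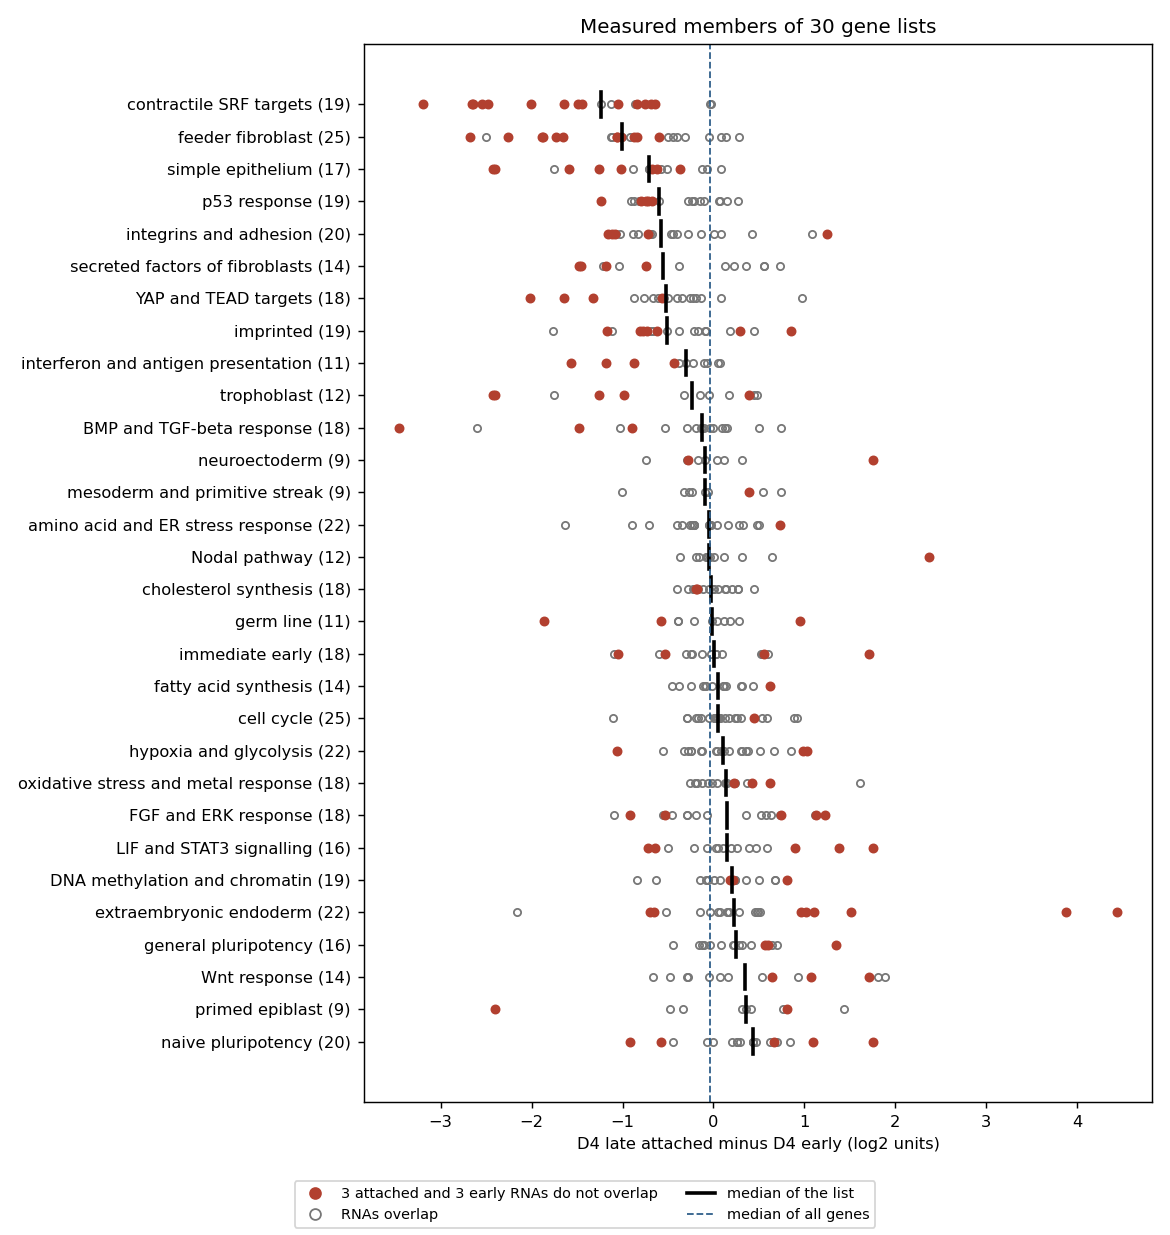
Difference of every measured member of the 30 gene lists (x axis, D4 late attached minus D4 early in log2 units), lists ordered from the lowest to the highest median, with the number measured in brackets. Filled points are genes whose late attached and early RNAs do not overlap, open points overlap, black bars are list medians and the dashed line is the median of all genes (-0.04). Contractile genes have the lowest median (-1.23) and no member above 0, and the naive pluripotency list the highest (0.43).

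Outside the lists, the largest differences on MOE430A that were not called but did not overlap were named by a fixed rule, among genes whose mean log2 signal passed 8 in at least 1 of the D4 late attached and D4 early groups. Trh, the gene of thyrotropin-releasing hormone, had a log2 signal of 11.76, 12.59 and 12.63 in D4 late attached cells, against 9.83, 9.60 and 11.18 in D4 early cells, a difference of 2.12 (SE 0.37, adjusted p = 0.135). Larger still were Mep1b, a membrane metalloprotease, at 3.01, Myrf, a membrane-bound transcription factor, at 2.33 and Trp53rka, 1 of a pair of similar kinase genes whose signals may mix, at 2.31 (adjusted p of 0.267, 0.222 and 0.135). H2-Aa at 2.66 and Epb41l2 at 2.14 were not borne out by their other probe sets, at -0.81 for H2-Aa and between -1.29 and 0.59 for Epb41l2. On the lower side, Serpinf1, a secreted serpin, had 7.99, 7.88 and 7.66 in late attached cells, against 11.21, 9.94 and 10.61 in early cells, a difference of -2.75 (SE 0.57, adjusted p = 0.162), and its second probe set gave -0.98. Dynlt3, a dynein light chain, gave -2.77, with other probe sets at -0.91, -1.05 and -0.56, and Dbndd2 -2.77, with others at -0.68, 1.09 and 0.97. Among genes represented on MOE430A, the median difference by chromosome ran from -0.07 to 0.00 over 20 chromosomes with at least 100 such genes.

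The difference between late attached and early cells was then set against that in line C2, which shares no RNA with it. Testing the difference between the lines called 1 of 14160 probe sets on MOE430A (0.00706%), Scnn1a, and 0 of 16213 on MOE430B, where 955 had an unadjusted p under 0.05 and the smallest adjusted p was 0.116. Scnn1a encodes the alpha subunit of the epithelial sodium channel. Its log2 signal was 8.84, 8.63 and 7.88 in D4 late attached cells, against 9.79, 9.64 and 9.13 in D4 early cells, a difference of -1.07 (SE 0.28) that was not called (adjusted p = 0.197). In C2 the late attached RNAs read 10.07, 9.67 and 9.72 and the early RNAs 7.73, 7.17 and 7.44, a difference of 2.37. That C2 difference was called (adjusted p = 0.00945), the only 1 called in C2 on MOE430A. The lines thus differed by -3.44 (SE 0.40, adjusted p = 0.00699), and with any 1 of the 12 RNAs left out the adjusted p was 0.00802 to 0.0407. It was not called with trended, robust variances (adjusted p = 0.0705). On MOE430A the C2 late attached and C2 early arrays shared a day and an operator, whereas the D4 late attached and D4 early arrays did not. Day and operator therefore cannot be told apart from line in this test.

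For the other named genes the difference between lines was not called, so for none of them is the difference shown to be particular to D4. Srgn gave 4.44 in D4 and 2.79 in C2. Cubn gave 3.88 and 1.72 on its brightest probe set and 4.10 and 3.59 on the other. Lefty2 gave 2.38 in D4 and 2.30 in C2, Trh 2.12 and 1.53, Socs3 1.38 and 0.88 and Plk2 -1.24 and -1.38. Contractile and keratin genes had these values: Acta1 gave -3.20 in D4 and -2.97 in C2, Tagln -2.64 and -2.45, Krt18 -2.40 and -2.59, with a median of the contractile list of -1.23 in D4 and -0.90 in C2. Genes that lay far apart without passing that test were Tgfb3, at -3.45 in D4 and 0.82 in C2, Jmjd4, at 2.99 and -1.31, and Serpinf1, at -2.75 and -0.08. Their other probe sets did not repeat these gaps for Jmjd4, at 0.48 in D4 and 1.18 in C2, or for Serpinf1, at -0.98 and 0.07. The feeder list had a median of -1.0 in D4 and -0.43 in C2, and the p53 list -0.60 and -0.16.

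**Figure D5:**
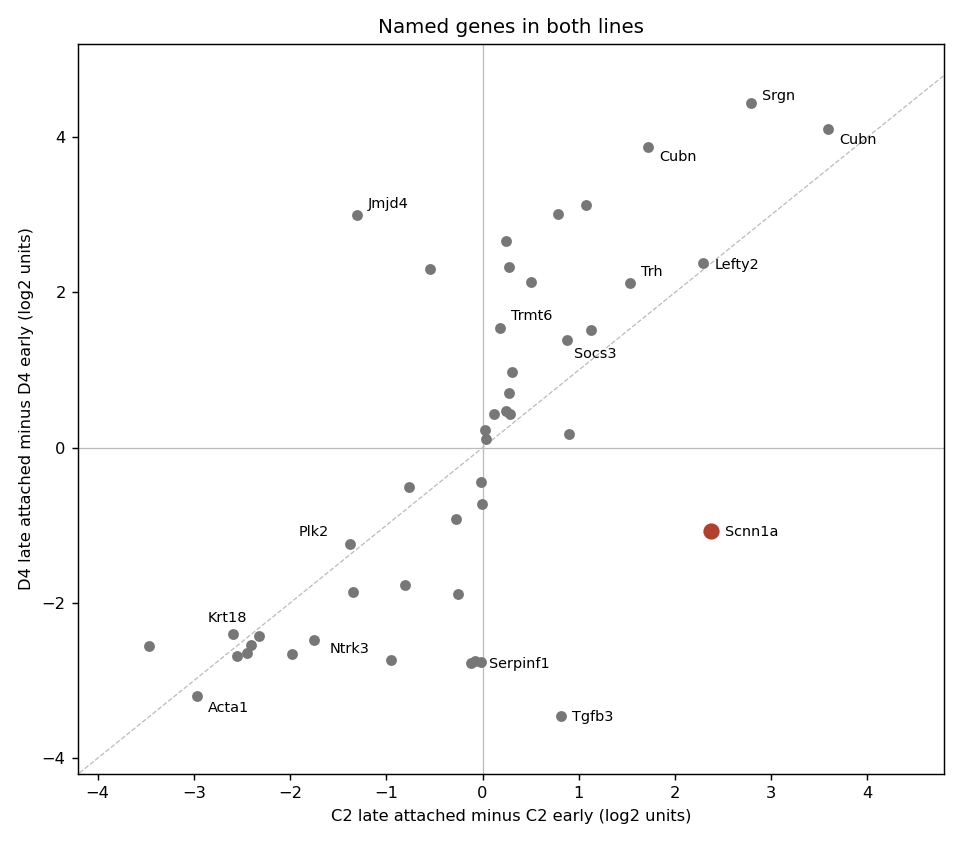
Differences of the named genes between late attached and early cells in D4 (y axis) and in C2 (x axis), in log2 units, each point a probe set and the dashed diagonal marking equal values. The red point is Scnn1a, at -1.07 in D4 and 2.37 in C2, the only one whose difference between lines was called. Srgn, Cubn and Lefty2 lie at the upper right and Acta1 and Krt18 at the lower left.

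Late detached D4 cells, with 2 RNAs, were compared with the same D4 early RNAs, so their values are given side by side and not as separate evidence. Against D4 early, Srgn gave 4.44 in late attached and 4.19 in late detached cells and Cubn 3.88 and 3.72. The median of the feeder list was -1.0 in late attached and -2.47 in late detached cells, that of the contractile list -1.23 and -1.92, and that of the simple epithelium list -0.71 and -1.0. Of 14160 probe sets on MOE430A, 148 (1.05%) were called between late detached and early cells, beside the 3 between late attached and early cells. On MOE430B 3 of 16213 (0.0185%) were called between late detached and early cells. Compared directly, late detached and late attached D4 cells differed in 5 of 14160 called probe sets on MOE430A and 0 of 16213 on MOE430B. The late detached arrays shared the day of the early arrays, and the late attached arrays did not.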

How the data were processed

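In all, 17 RNAs were hybridised to Affymetrix MOE430A and MOE430B arrays. The values used are the deposited signal intensities of the series matrix, for which the submitters' processing notes name MAS5; the version and scaling target are not given in the sources used here, but the trimmed mean signal was 1500 to 1501 on each array. Run, day, operator and chip lot were taken from the deposited fluidics logs, and groups from the sample titles.

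MOE430A and MOE430B were modelled apart, using limma 3.58.1 (R 4.3.3), and Python 3.11.15 served for lists and figures. Signals were taken as log2(signal + 16), and tests were kept to probe sets above the array's median signal on at least 2 of the 17 arrays. The fit held all 6 groups of the study, which share 1 estimate of the spread, and p-values were Benjamini-Hochberg adjusted, with a threshold of 0.05. Recovery of known changes was tested on simulated data. A single gene symbol was given for 20393 of the 22690 MOE430A probe sets, several for 691 and none for 1606. On MOE430B these numbers were 14674 of 22575, 245 and 7656. Only probe sets with 1 symbol were named by gene, and those ending in _s_at or _x_at can match several transcripts.

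Named genes were the called probe sets, then the largest differences without overlap on MOE430A up to 10 in each direction, both limited to genes whose mean log2 signal passed 8 in D4 late attached or D4 early cells, any probe set called for the difference between the lines, and fixed members of 30 gene lists. Of 551 listed genes, 461 were measured. The members and lists were chosen with earlier results of these data known. Replicate numbers did not pair the RNAs: correlations of the deviations of same-numbered D4 RNAs were -0.22, 0.03 and -0.02 on MOE430A and -0.10, -0.01 and -0.01 on MOE430B. Alternatives were other pseudocounts, filters, scaling and variance models, the groups compared alone, the replicate block, run and chip lot as terms, and each RNA left out.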

Additional observations from a re-analysis of the deposited data

Results flagged for a closer look

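The difference between late attached and early cells itself differed between lines for 1 gene, Scnn1a, the epithelial sodium channel subunit. D4 minus C2 was -3.44 log2 units (adjusted p = 0.00699), with the 3 D4 late attached RNAs below the 3 D4 early RNAs and the 3 C2 late attached RNAs above the 3 C2 early RNAs. It was not called with a trended and robust variance model (adjusted p = 0.0705). On its own, the C2 difference was called (adjusted p = 0.00945) and the D4 difference was not (adjusted p = 0.197). The D4 groups differed in day and operator on MOE430A and the C2 groups did not, so these cannot be told apart from line.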

How the results depend on the processing

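Counts of calls depended on the settings. On MOE430A, against 3 calls, there were 15 with a filter at the 75th percentile, 12 with trended, robust variances, 1 with only the groups compared, 0 with the replicate block (1099 at an unadjusted p under 0.05) and 0 to 9 with 1 RNA left out. On MOE430B, against 4 calls, there were 2 with log2(signal + 64), 0 without a filter, 8 with the 75th percentile filter, 0 after quantile scaling, 2 with trended variances, 0 with only the groups compared, 0 with the replicate block (1017 at an unadjusted p under 0.05), 18 with run as a random block, 0 with chip lot and 0 to 4 with 1 RNA left out. For the difference between the lines, against 1 call on MOE430A, there were 0 with the 75th percentile filter, under which Scnn1a was not tested. There were also 0 with trended variances or the replicate block (Scnn1a adjusted p = 0.0707), and 1 to 2 with 1 RNA left out. On MOE430B, against 0, there was 1 with the 75th percentile filter, 3 with run as a random block and 0 to 1 with 1 RNA left out. The cause of these changes was not tested. Lefty1 turned to -0.08 without D4 late attached 2 and -0.26 without D4 early 3, and Gata4 to -0.047 without D4 early 3; with any 1 RNA left out they lay between -0.262 and 0.430 for Lefty1 and between -0.047 and 0.314 for Gata4. Of the values of named genes under all alternatives, 633 kept their direction and side of the threshold, 63 fell short of it, 12 newly passed it (Trh, Socs3, Lefty2, Dab2 or Plk2) and 3 reversed.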
